A study of Drosophila melanogaster with 9 samples.

Results

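The genes described here are Drosophila melanogaster genes that the authors annotated as of unknown function and as peaking in expression at the 2 d pupal stage, which is the age of the samples. They were chosen by those 2 deposited annotations, read from the first of the 4 deposited tables that holds a gene, with the stage taken from the first entry that was not blank. A stage range that includes 2 d counted. Genes whose symbols begin with Osi or CR and 11 other genes given by name were left out, which removed 5 genes that met both criteria. This gave 37 of the 904 distinct listed genes, of which 33 peaked at 2 d alone and 4 had a range that includes it.

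Retinas with optic lobes were dissected at 48 h after puparium formation (APF) from pupae aged at 25 °C, with other brain tissue removed. Control animals carried the lGMR-GAL4 driver over a wild-type chromosome (lGMR GAL4/+). RNAi animals carried the same driver with a Blimp-1 RNAi construct (lGMR GAL4>Blimp-1 RNAi), and overexpression animals carried it with UAS Blimp-1 (lGMR GAL4>UAS Blimp-1). Each group had 3 biological replicates, so 9 libraries in all, and both altered genotypes were compared with the same 3 control libraries. All groups carried the driver, which acts in the developing eye, while the libraries also hold optic lobe RNA; the control as labelled carried no UAS insert. In such bulk samples, fewer cells of a type and less RNA per cell cannot be told apart.

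Blimp-1 is a repressor of transcription with zinc fingers that is induced by the moulting hormone ecdysone and helps to time gene expression in pupae. In the middle of pupal life the cone and pigment cells of the eye lay down the corneal lens, a specialised cuticle, while photoreceptors build their light-sensing organelles. Most of the genes here carry only a CG number, the identifier of a gene predicted from the genome sequence and not yet named after a mutant or product. Exceptions are ImpE1, an ecdysone-inducible gene of imaginal discs, Reg-5, found as a rhythmically expressed gene, and geko, named after a mutant with altered olfactory behaviour. CG31028 carries the symbol Rsod in the annotation used here.

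The deposited tables hold only genes that the authors called changed: in every entry the log2 fold change is 1 or more in size and the adjusted p is under 0.05. Every value below is therefore from a gene already selected, and most of the 37 genes have values in a single altered genotype. Values are read counts that the authors normalized by 1 factor per library. Means are given ± SD with n = 3, folds are ratios of these means, and adjusted p-values come from the authors' deposited table unless said otherwise. Low values were whole multiples of 1 step per library, of 0.672 to 1.28 normalized counts, which was taken as 1 read. Only 19 to 130 values per library were low enough to show the step, too few within single tables to recover whole reads. On that reading the control libraries held 1189620 to 2306338 reads in 904 genes, the RNAi libraries 954531 to 1318366 in the 373 genes of their tables, and the overexpression libraries 1322180 to 1918179 in 710 genes; total depth is unknown. The lowest value among the 37 genes was 13.9 normalized counts, well above 1 step. The overexpressed gene Blimp-1 held 874, 888 and 748 normalized counts in control and 23252, 9467 and 18277 in overexpression. The size of the knockdown could not be checked, since neither table for RNAi lists the gene. Blimp-1 RNA was thus not listed as lower in RNAi within the limits given above, a log2 fold change of 1 or more in size and an adjusted p under 0.05. Cell type markers had values only where they were listed, so none could be shown to be at 0. In RNAi, 1 of 12 photoreceptor markers (chp, 25179 to 28494 in control and 8467 to 17427 in RNAi) and 2 of 7 cone and pigment cell markers (st and cn, summing to 9611 to 10975 and 1628 to 2441) were lower. In overexpression, 4 of 12 photoreceptor markers were higher and 1 lower (Arr1, Arr2, ninaA, trpl and inaD, summing to 5642 to 5865 in control and 57173 to 72729 in overexpression). The lower one was inaD, at 1821 to 2449 in control and 611 to 910 in overexpression. Most of the sum came from Arr2, which was higher, at 3078 to 3707 and 48257.5 to 60739. Also higher were 3 of 6 hemocyte markers (srp, NimC4 and NimC2, 153 to 215 and 554 to 972) and 2 of 6 glial markers (wrapper and nrv2, 4684 to 5102 and 10653 to 13600.3). From the other lists, Ppn (hemocyte) and sls (muscle) were lower and Zasp52 (muscle) higher in RNAi, and w (pigment) and Tsf1 (fat body) were higher and Rim (optic lobe neuron) lower in overexpression. Their part in the results below was not tested.

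In the control libraries, which hold RNA of retina and optic lobe, these genes covered a wide range of levels. Per kilobase of annotated exon, the highest was CG4702 at 12042 normalized counts, followed by CG15506 at 7510.2, CG13931 at 5158 and CG10311 at 5114. CG4702 stood above the other 36 genes in every control library. The control libraries of CG15506 and CG13931 overlapped, as did those of CG13931 and CG10311, so these neighbours in the order did not differ beyond the spread between libraries. At the other end stood CG13157, at 14.4 normalized counts per kilobase, which lay below the other 36 genes in every control library. The median over the 37 genes was 484 normalized counts per kilobase. It was 417 for the listed protein-coding genes of another function that peak at 2 d, 54.4 for those of unknown function with another peak stage, 90.2 for those of unknown function with no stage entry, and 103 for all listed protein-coding genes. The 5 genes of unknown function left out by name had a median of 13328. By level the 37 genes were thus close to the 2 d genes of another function, above genes of unknown function with another stage or none, and far below the 5 left out, given here as a description.

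**Figure D1:**
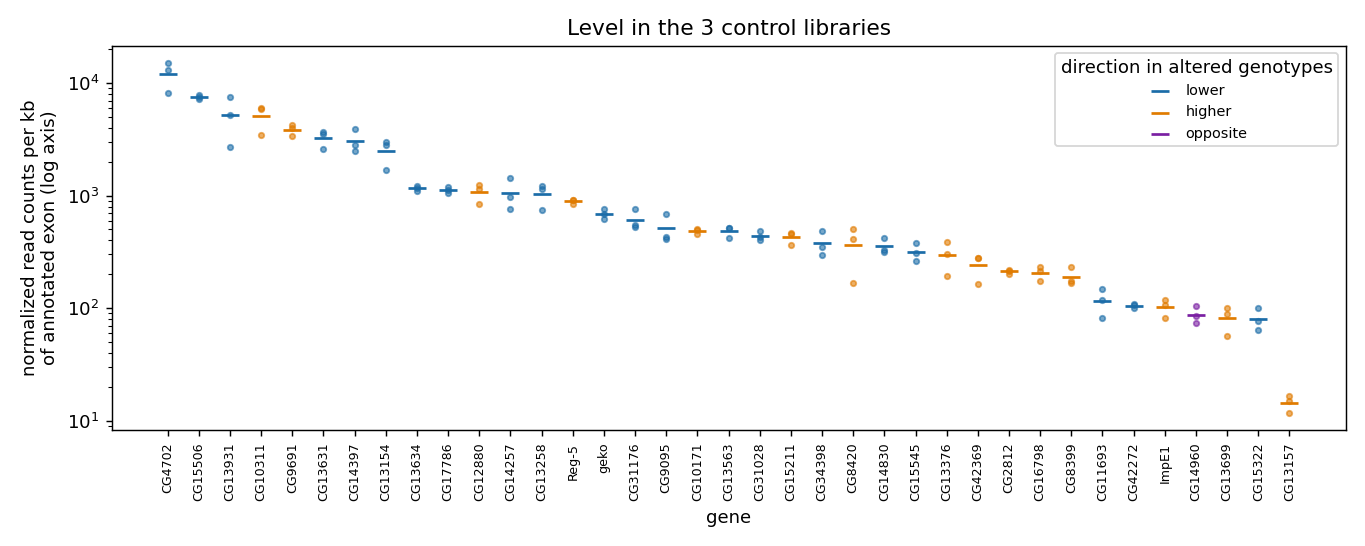
Level of the 37 genes in the 3 control libraries, as normalized read counts per kilobase of annotated exon on a log axis; dots are libraries, dashes are means, and colours give the direction of the deposited call in the altered genotypes. Levels run from 14.4 per kilobase for CG13157 to 12042 for CG4702, and genes called lower and genes called higher are mixed over most of that range.

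All 37 genes are annotated as protein-coding. The longest annotated product had a median of 348 residues, from 83 in CG13631 to 1930 in CG34398, against a median of 455 over 851 listed protein-coding genes. Products under 200 residues came from 6 of the 37 genes (16.2%), from 13.2% of all listed protein-coding genes from 40.8% of the 71 genes of unknown function with another peak stage, from 21.2% of the 33 with no stage entry and from none of the 5 left out by name. Chromosome arm 3R held 13 of the 37 genes (35.1%), against 24.5% of the 867 listed genes that could be placed, and the X chromosome held 5 (13.5%, against 14.5%). Very short products were thus a minority among the 37 genes.

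Blimp-1 RNAi changed 14 of these genes (37.8%), lowering 10 and raising 4. Of all 904 listed genes 41.3% were listed for RNAi, a similar share. Every listed gene was called in at least 1 comparison, so this is no rate of change over all genes. The falls ranged from 2.52-fold to 20.1-fold and the rises from 2.80-fold to 11.2-fold. The 10 lower genes made up 71.4% of the 14, where 50.7% of all 373 genes listed for RNAi were lower and 49.3% higher. Of listed genes with another function and a 2 d peak, 49 of 79 (62.0%) were lower, and of those of unknown function, 5 of 24 (20.8%) with another peak stage and 4 of 10 with no stage entry. Of the genes left out by name, 2 were listed and both were lower. The share of lower genes among the 14 was thus nearer to that of other 2 d genes than to that of genes of unknown function with another stage or none; no test of this difference was made. Median control means were 378 normalized counts for the 14 genes, 1124 for the other 2 d genes and 374 for all genes listed for RNAi. They were 145 and 133 for genes of unknown function with another stage or none. Whether control level bears on these shares was not tested. Median absolute log2 fold changes in the authors' deposited table were 1.96 for the 14 genes and 1.70 for all genes listed for RNAi. In all 14 genes the 3 RNAi libraries lay wholly to one side of the 3 control libraries, as they did in 100% of the genes listed for RNAi, so this says nothing particular about these genes.

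The largest fall was in CG15506 (FBgn0039686, dm6 3R 29718663 to 29722388, plus strand), which encodes a product of 297 residues. It held 10592, 11576 and 10975 normalized counts in the control libraries and 619, 352 and 677 in RNAi. The control libraries were nearly equal, and the highest RNAi library stood 15.6-fold below the lowest control library. The mean went from 11048 ± 496 to 549 ± 173 normalized counts (SD, n = 3), a 20.1-fold fall with an adjusted p of 1.74e-76 in the authors' deposited table. Its change ranked 7 among the 189 lower genes of RNAi. The annotation places a long noncoding RNA gene, lncRNA:CR46108, inside CG15506 on the same strand, and shared reads could belong to either.

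CG13258 (FBgn0032582, dm6 2L 16292010 to 16293025, minus strand) and CG15322 (FBgn0031088, dm6 X 20133579 to 20138878, plus strand) fell 9.17- and 7.71-fold. CG13258 held 979, 601 and 932 normalized counts in the control libraries and 139, 57.0 and 77.4 in RNAi. For CG15322 the values were 241, 202 and 316 in control and 34.4, 20.6 and 43.4 in RNAi. In both genes every RNAi library lay more than 4-fold below every control library, although RNAi libraries of CG13258 differed among themselves by 2.44-fold. The authors' deposited table gives adjusted p-values of 1.7e-22 and 1.38e-16.

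CG4702 (FBgn0037992, dm6 3R 12121583 to 12128201, minus strand), the gene with the highest control level per kilobase, fell 4.11-fold. Its values were 11868, 21822 and 19016 in control and 3908, 2753 and 6166 in RNAi. The highest RNAi library was thus still 1.92-fold below the lowest control library, and with a mean of 4276 ± 1736 normalized counts in RNAi (SD, n = 3) the gene ranked 10 by level among the 189 lower genes. CG42272 fell 3.11-fold with little spread, at 261, 241 and 257 in control and 87.4, 72.8 and 84.2 in RNAi. CG34398, a long gene with 10 annotated transcripts on chromosome arm 2L, fell 2.52-fold, from 3319 ± 865 to 1315 ± 127 normalized counts (SD, n = 3), the smallest fall of the 10. For these 3 genes the authors' deposited table gives adjusted p-values of 1.88e-10, 3.7e-10 and 4.53e-09. The other 4 lower genes, CG11693, CG13154, CG15545 and CG14960, were also listed for overexpression and are described together below.

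Of the 4 genes that RNAi raised, CG13376 (FBgn0029518, dm6 X 265724 to 267028, minus strand) rose most. It held 462, 231 and 366 normalized counts in the control libraries and 4506, 4779 and 2530.4 in RNAi. This was a rise of 11.2-fold, from 353 ± 116 to 3938 ± 1227 normalized counts (SD, n = 3; adjusted p = 9.51e-33 in the authors' deposited table), with no overlap between groups. A noncoding gene, asRNA:CR43906, is annotated over CG13376 on the other strand. CG13157, the gene with the lowest control level, rose 4.47-fold, with 28.2, 31.7 and 22.4 normalized counts in control and 167, 55.8 and 145 in RNAi. Its RNAi libraries had the widest spread among the RNAi libraries of the 14 genes, and replicate 2 stood closest to control. CG13699, whose product of 1051 residues is the longest of the 4, rose 3.44-fold, from 306 ± 85.1 to 1054 ± 129 normalized counts (SD, n = 3), and its RNAi libraries agreed within 1.28-fold. The authors' deposited table gives an adjusted p of 2.57e-05 for CG13157 and 7.35e-12 for CG13699. CG8420 was the other gene that rose.

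**Figure D2:**
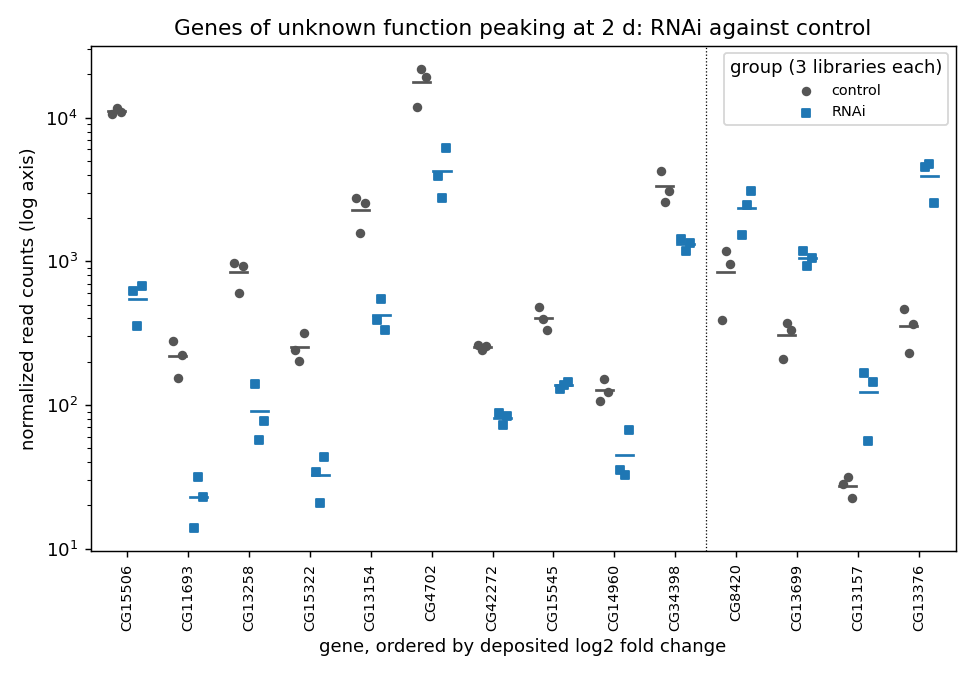
Normalized read counts (log axis) of the 14 genes listed for RNAi, in 3 control libraries (circles) and 3 RNAi libraries (squares), with group means as dashes; genes are ordered by the deposited log2 fold change, and the dotted line parts lower from higher genes. The 10 lower genes run from CG15506, at 11048 in control and 549 in RNAi, to CG34398, and no RNAi library overlaps with the control libraries of its gene.

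The RNAi tables also hold the authors' marks for sites of Blimp-1 and of Slbo, a transcription factor of the C/EBP family. The sources used here do not say how these sites were found. Of the 14 genes, 11 (78.6%) had a Blimp-1 mark, against 42.4% of all 373 genes listed for RNAi. Among the 10 lower genes 9 had one, CG34398 being the exception, and among the 4 higher genes CG13699 and CG8420 had one. Listed genes of another function that peak at 2 d had a Blimp-1 mark in 64.6% of 79 cases, and genes of unknown function in 37.5% of 24 with another peak and in 2 of 10 with no stage entry. A Slbo mark stood beside 8 of the 14 genes (57.1%), against 34.3% of all genes listed for RNAi, 41.8% of the other 2 d genes, 45.8% of the genes of unknown function with another peak and 1 of the 10 with no stage entry. Of the 2 genes left out by name, 1 had a Blimp-1 mark and both a Slbo mark. Both marks stood beside 7 of the 14: CG11693, CG13258, CG4702, CG42272, CG15545, CG14960 and CG13699. Neither stood beside CG34398 and CG13157. Within the 14 genes, marks were more frequent among lower than higher genes, but the sets are small and were given without a test. All genes listed for RNAi showed no such lean. Among them, Blimp-1 marks were found in 41.3% of the falling and 43.5% of the rising genes, and Slbo marks in 31.2% and 37.5%. In the other 2 d genes the Blimp-1 shares were 65.3% and 63.3%, and the Slbo shares 40.8% and 43.3%. Small sets of other genes of unknown function did lean that way for both marks. Their Blimp-1 shares were 3 of 5 against 6 of 19 with another peak, and 1 of 4 against 1 of 6 with no stage entry. Their Slbo shares were 3 of 5 against 8 of 19, and 1 of 4 against 0 of 6. No marks are used here for genes listed in overexpression alone.

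**Figure D3:**
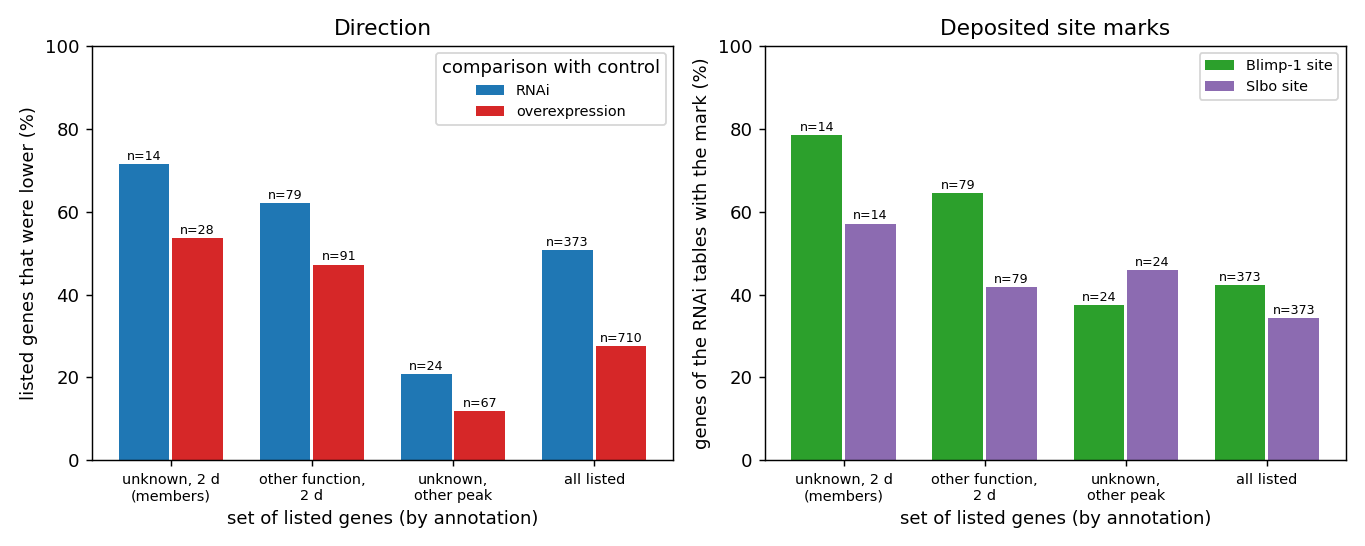
Left, the share (%) of listed genes that were lower in RNAi (blue) and overexpression (red), for the 37 genes, listed genes of another function that peak at 2 d, listed genes of unknown function with another peak, and all listed genes, with the number of listed genes above each bar. Right, the share (%) of genes in the RNAi tables with a deposited mark for a Blimp-1 or Slbo site; the 14 genes of unknown function that peak at 2 d had Blimp-1 marks in 78.6%, against 42.4% of all 373.

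Blimp-1 overexpression changed 28 of the 37 genes (75.7%), lowering 15 and raising 13. Of all 904 listed genes 78.5% were listed for overexpression, again a similar share among genes already called. The 15 lower genes made up 53.6% of the 28, where 27.6% of all 710 genes listed for overexpression were lower and 72.4% higher. Of listed genes with another function and a 2 d peak, 43 of 91 (47.3%) were lower, and of those of unknown function, 8 of 67 (11.9%) with another peak and 5 of 25 with no stage entry. Of the 5 genes left out by name, 3 were lower. As in RNAi, the share lower was near that of the other 2 d genes, and no test of the difference was made. Median control means were 1279 normalized counts for the 28 genes and 1271 for the other 2 d genes. They were 83.6 and 87.5 for genes of unknown function with another peak or no stage entry, and 180 for all 710 genes. Whether control level bears on these shares was not tested. The falls were moderate, from 2.11-fold to 8.67-fold with a median of 2.77-fold, and 11 of the 15 were under 3-fold. The rises ran from 2.49-fold to 14.6-fold with a median of 4.75-fold, and 7 of the 13 were over 4-fold. Median absolute log2 fold changes in the authors' deposited table were 1.39 for the 15 lower genes and 2.16 for the 13 higher genes, against 1.46 and 1.89 for all genes listed as lower and higher. The 3 libraries of each group did not overlap in any of the 28 genes, where the same held for 99.7% of all genes listed for overexpression.

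CG13931 (FBgn0035258, dm6 3L 1700956 to 1702407, minus strand) fell most. It held 8069.7, 2882 and 5496 normalized counts in the control libraries and 540.2, 831 and 527 in overexpression. The control libraries spread over 2.80-fold, yet the lowest was 3.47-fold above the highest overexpression library. On means this was a fall of 8.67-fold, from 5483 ± 2594 to 633 ± 172 normalized counts (SD, n = 3; adjusted p = 3.86e-15 in the authors' deposited table). The gene lies on the other strand wholly within CG7991.

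CG14257 (FBgn0039479, dm6 3R 27075870 to 27082818, plus strand) fell 5.71-fold and CG31176 (FBgn0051176, dm6 3R 21672303 to 21719660, minus strand) 3.95-fold. CG14257 held 3802, 2009.5 and 2567 normalized counts in the control libraries and 630.4, 419.7 and 418 in overexpression. For CG31176 the values were 1903, 1372 and 1321 in control and 507, 283 and 374 in overexpression. In both genes control replicate 1 was the highest library, and the nearest libraries of the groups lay 3.19-fold apart in CG14257. The adjusted p-values were 1.89e-14 and 2.53e-10 in the authors' deposited table.

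CG17786 fell 2.76-fold, from 4582 ± 254 to 1661 ± 337 normalized counts (SD, n = 3), from control libraries that agreed within 1.12-fold. It lies within the gene twin on the same strand, so reads from both could have been shared in counting. The gene geko, at 823, 907 and 1005 in control and 182, 448 and 324 in overexpression, fell 2.87-fold. Its overexpression libraries spread over 2.46-fold, the widest of the 28 genes. CG14397, with a product of only 107 residues, fell 2.81-fold, from 1637 ± 381 to 582 ± 177 normalized counts (SD, n = 3). In the authors' deposited table these 3 genes had adjusted p-values of 1.59e-09, 7.74e-05 and 8.54e-06.

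A pair of the lower genes, CG13631 and CG13634, lie 17314 bases apart on chromosome arm 3R (dm6 24769351 to 24770933 and 24788248 to 24790136). CG13631, which has the shortest product of the 37 genes, held 4101, 5769 and 5561 normalized counts in the control libraries and 1961, 2328 and 2779 in overexpression, a fall of 2.18-fold. CG13634 fell 2.41-fold, at 2249, 2142 and 2006 in control and 1109.5, 845 and 702 in overexpression. Between them lies CG42331, annotated as an enzyme gene, which was also listed as lower in overexpression and in RNAi. Ude, 7323 bases from CG13634 on the same strand, was higher in overexpression. CG13634 itself lies within Ets96B on the other strand. In the authors' deposited table the adjusted p was 4.13e-05 for CG13631 and 2.36e-06 for CG13634.

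The smallest listed fall was in CG31028 (Rsod), at 1526, 1843 and 1623 in control and 762, 760.4 and 843 in overexpression, 2.11-fold. With a log2 fold change of -1.02 in the authors' deposited table it lay just inside the limit of 1 for listing; values of genes outside that limit were not analysed here. Its groups were tight and well apart (adjusted p = 7.31e-07 in the authors' deposited table), and without control replicate 2 the log2 ratio of its means came to just under 1 in size. The falls of CG13563, CG9095 and CG14830, which the rule for named genes did not pick, were between 2.44- and 2.77-fold, with adjusted p-values of at most 0.000208 in the authors' deposited table.

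Of the 13 genes that overexpression raised, CG16798 (FBgn0032856, dm6 2L 20376981 to 20382356, minus strand) rose most. It held 540.1, 434 and 585 normalized counts in the control libraries and 9940.2, 5113 and 7769.6 in overexpression. Its lowest overexpression library was 8.74-fold above its highest control library. The mean rose 14.6-fold, from 519.6 ± 77.7 to 7608 ± 2418 normalized counts (SD, n = 3; adjusted p = 2.94e-38 in the authors' deposited table).

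CG10311 (FBgn0038420, dm6 3R 16350786 to 16357015, minus strand) reached the highest level of all 37 genes in an altered genotype. It held 3760.1, 6417 and 6483 normalized counts in the control libraries and 33702, 54157 and 37357 in overexpression, a rise of 7.52-fold. With a mean of 41739 ± 10909 normalized counts (SD, n = 3) it ranked 5 by level among the 514 higher genes of overexpression, after ranking 8 in control. Its product has 165 residues. The authors' deposited table gives it an adjusted p of 2.8e-20.

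CG12880 and CG8399 rose by almost the same factor, 5.67- and 5.65-fold, from control levels that differed. CG12880 held 1607, 2181 and 2331 normalized counts in the control libraries and 11537, 10959 and 12216 in overexpression. In CG8399 the values were 393, 538 and 408 in control and 2532, 2983 and 2055 in overexpression. Overexpression libraries of CG12880 agreed within 1.11-fold, the least spread in overexpression among the 13 higher genes. Between their nearest libraries the groups lay 4.70-fold apart in CG12880 and 3.82-fold in CG8399. CG12880 overlaps CG31055 on the other strand over 2173 bases. The adjusted p was 1.48e-27 for CG12880 and 2.55e-21 for CG8399 in the authors' deposited table.

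CG15211 (FBgn0030234, dm6 X 10772541 to 10778981, plus strand) rose 4.86-fold, at 517, 660.2 and 644 in control and 2447, 3497 and 2910.2 in overexpression (adjusted p = 6.32e-20 in the authors' deposited table). CG10171 rose 2.94-fold, from 894 ± 51.0 to 2625 ± 920.2 normalized counts (SD, n = 3), with control libraries within 1.11-fold and overexpression libraries over a range of 1.81-fold. It lies 1946 bases from ImpL1, an ecdysone-inducible gene that was listed as higher in overexpression and lower in RNAi. CG14107, 4599 bases from CG10171 on the same strand, was lower in both genotypes. CG9691, a compact gene on the X chromosome with a product of 121 residues, rose 2.54-fold, from 2323 ± 264 to 5911 ± 1667 normalized counts (SD, n = 3). Its neighbours CG9689 and CG15249, 771 and 2927 bases away, were both also listed as higher. The authors' deposited table gives an adjusted p of 1.31e-06 for CG10171 and 1.11e-05 for CG9691.

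ImpE1 (FBgn0001253, dm6 3L 8372405 to 8391171, plus strand) showed the smallest rise by the log2 fold change of the authors' deposited table, 1.15. It held 517, 733 and 665 normalized counts in the control libraries and 1800.0, 919 and 2172 in overexpression. Replicate 2 of overexpression stood only 1.25-fold above the highest control library, well below replicates 1 and 3. The mean rose 2.55-fold, from 638 ± 110.3 to 1630.2 ± 644 normalized counts (SD, n = 3; adjusted p = 0.000791 in the authors' deposited table). The rises of CG42369, CG2812 and Reg-5, which the rule for named genes did not pick, were between 2.49- and 2.76-fold, with adjusted p-values of at most 2.02e-05 in the authors' deposited table. CG2812 lies within SERCA on the other strand and CG42369 within DIP-epsilon on the same strand.

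**Figure D4:**
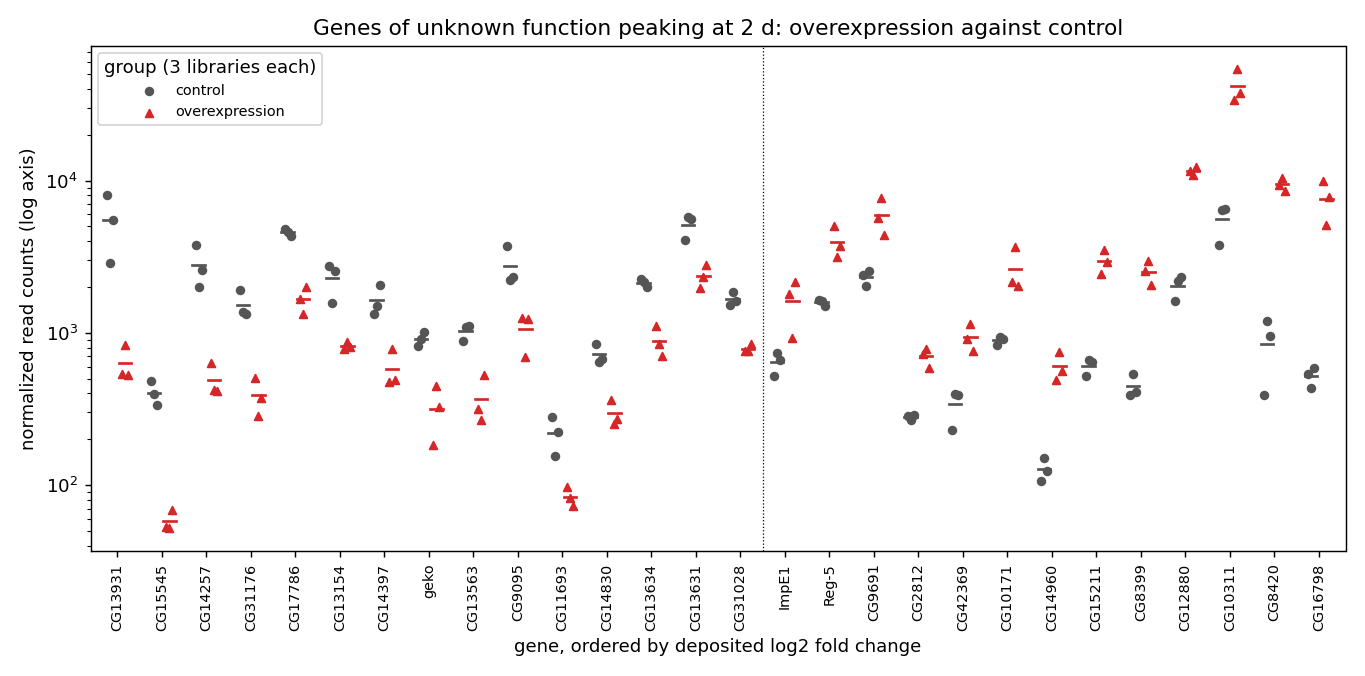
Normalized read counts (log axis) of the 28 genes listed for overexpression, in 3 control libraries (circles) and 3 overexpression libraries (triangles), with group means as dashes; genes are ordered by the deposited log2 fold change, and the dotted line parts lower from higher genes. The steepest fall is that of CG13931, at 5483 in control and 633 in overexpression, the steepest rise that of CG16798, at 519.6 and 7608, and CG10311 stands highest at 41739.

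Of the 37 genes, 5 (13.5%) were listed in both comparisons and have values in all 9 libraries, against 19.8% of all 904 listed genes. They made up 35.7% of the genes listed for RNAi and 17.9% of those listed for overexpression, where the shares over all listed genes were 48.0% and 25.2%. The comparisons share their control libraries, so the 2 calls of a gene are not independent. CG11693, CG13154 and CG15545 were lower in both genotypes, CG8420 was higher in both, and CG14960 was lower in RNAi and higher in overexpression. To compare the altered genotypes directly, limma was fitted to log2(normalized count + 1) of the 179 genes listed in both comparisons, in all 9 libraries, with adjustment over those 179. This fit did not pair libraries by replicate number. It called 63.7% of the 179 genes different between overexpression and RNAi at an adjusted p under 0.05, and all 5 genes were among them. A call was thus common among genes listed in both comparisons.

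CG14960 (FBgn0035428, dm6 3L 3271036 to 3276255, plus strand) was the gene with opposite responses. It held 106, 151 and 124 normalized counts in the control libraries and 35.3, 32.8 and 67.2 in RNAi, and 493, 749 and 564 in overexpression. RNAi lay below and overexpression above the control libraries, with no overlap between any of the groups. On means the gene was 2.81-fold lower in RNAi and 4.75-fold higher in overexpression, with an adjusted p of 0.0014 and 1.22e-13 in the authors' deposited table. Overexpression exceeded RNAi by 3.76 ± 0.31 on the log2 scale (SE, limma, adjusted p = 5.43e-09), at 602 ± 132 against 45.1 ± 19.2 normalized counts (SD, n = 3). The opposite calls against the same controls already implied a difference of this sign, so the fit is no separate evidence for it. The next listed gene, ckd, lies 2851 bases away on the same strand, is annotated as cuticle and was listed as higher in overexpression.

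CG8420 (FBgn0037664, dm6 3R 9246649 to 9251431, plus strand) rose more in overexpression than in RNAi. It held 393, 1187 and 958 normalized counts in the control libraries and 1527, 2483 and 3086 in RNAi, and 9356, 10437 and 8490.5 in overexpression. Control replicate 1 was low, so that the control libraries spread over 3.02-fold, the widest of the 37 genes, and the lowest RNAi library stood only 1.29-fold above the highest control library. The rises were 2.80-fold in RNAi and 11.1-fold in overexpression, with adjusted p-values of 0.000479 and 1.76e-19 in the authors' deposited table. The difference between the altered genotypes was 2.05 ± 0.35 on the log2 scale (SE, limma, adjusted p = 5.53e-05).

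CG11693 (FBgn0037570, dm6 3R 8308881 to 8310778, minus strand) fell further in RNAi than in overexpression. It held 279, 154 and 222 normalized counts in the control libraries and 13.9, 31.6 and 23.0 in RNAi, and 96.6, 81.7 and 72.5 in overexpression. The falls were 9.58- and 2.62-fold (adjusted p = 1.09e-16 and 0.000403 in the authors' deposited table), and the level in overexpression exceeded that in RNAi by 1.89 ± 0.33 on the log2 scale (SE, limma, adjusted p = 6.08e-05). CG13154 (FBgn0033736, dm6 2R 12426883 to 12427861, minus strand) showed the same order, at 2749.7, 1563 and 2561 in control, 389, 549.8 and 332 in RNAi and 779, 873 and 809.7 in overexpression. Here the falls were 5.41- and 2.79-fold (adjusted p = 2.36e-19 and 7.02e-07 in the authors' deposited table), with a difference of 0.98 ± 0.28 on the log2 scale (SE, limma, adjusted p = 0.00453).

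CG15545 (FBgn0039806, dm6 3R 30870939 to 30872351, minus strand) had the reverse order and fell further in overexpression. It held 482, 395 and 333 normalized counts in the control libraries and 129, 137 and 144 in RNAi, and 52.8, 52.3 and 68.4 in overexpression. Each group was well separated from the others. The falls were 2.95-fold in RNAi and 6.98-fold in overexpression (adjusted p = 3.17e-10 and 7.83e-20 in the authors' deposited table), and overexpression minus RNAi was -1.24 ± 0.26 on the log2 scale (SE, limma, adjusted p = 0.000455). Among the 28 genes this was the second largest fall in overexpression by deposited log2 fold change.

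**Figure D5:**
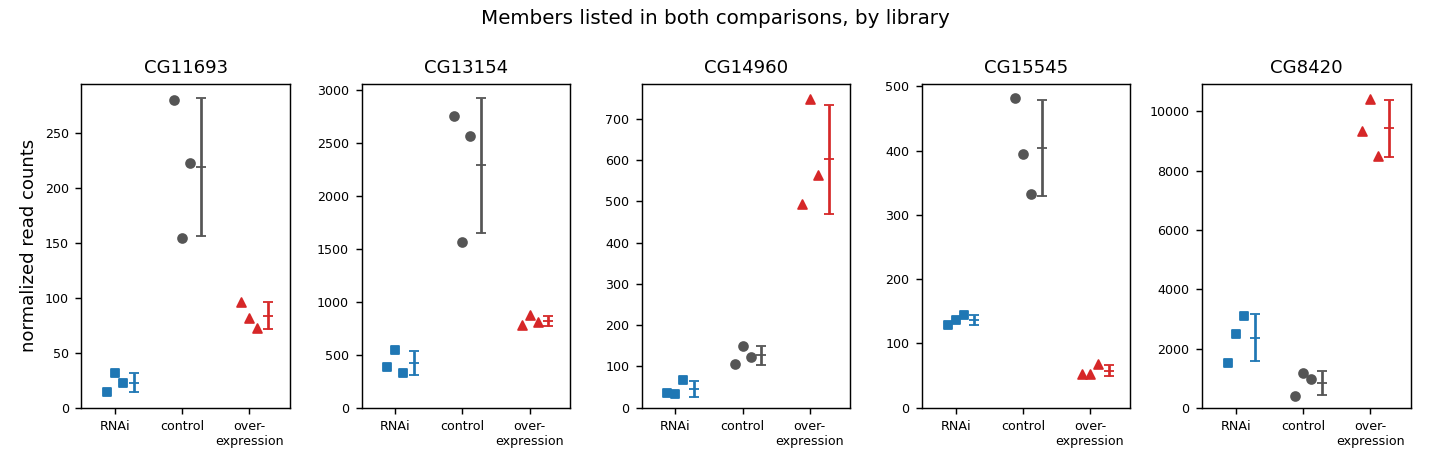
Normalized read counts (linear axes from 0, a scale per gene) of the 5 genes listed in both comparisons, in 3 libraries each of RNAi (squares), control (circles) and overexpression (triangles), with the mean ± SD beside the points. CG11693, CG13154 and CG15545 lie below control in both genotypes, CG8420 above it in both, and CG14960 runs from 45.1 in RNAi through 127 in control to 602 in overexpression.

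Along the chromosomes, 19 of the 37 genes (51.4%) had another listed gene within 20 kb, close to the 46.9% of all 867 placed listed genes. Neighbours moved in the same as well as in opposite directions. CG13157 lies 873 bases from the cuticle protein gene Cpr49Ah on the same strand, and both were higher in RNAi, while CG13154, 8651 bases away on the other strand, was lower. CG13699 and its neighbour CG7330, 1089 bases apart on opposite strands, were both higher in RNAi. The gene geko, 9478 bases from CG13699, was lower in overexpression and not listed for RNAi, so its direction cannot be set against theirs. CG31176 and CR44096, a long noncoding RNA gene 1306 bases away on the other strand, were both lower in overexpression. Where the annotation overlaps another gene, as for 14 of the 37 genes and on the same strand for CG15506, CG17786 and CG42369, reads could be shared, and the authors' rule for counting them and its strand setting are not stated.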

How the data were processed

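Libraries of stranded mRNA were made from 250 ng of total RNA, per the labels' protocols. The submitters' processing notes name build dm6, DESeq2 without a version, bedtools 2.26.0, Subread 1.6.3, STAR 2.6.1d and Picard 2.18.20, with neither roles nor settings. The authors deposited 4 tables of called genes with normalized counts (a signal that the values show to be scaled by a single factor in each library), log2 fold changes and adjusted p-values, per the file headers. Deposited log2 fold changes, control over altered genotype, were turned around. Altered symbols of 2 genes were restored by identifier.

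Means, SDs and folds were computed without a pseudocount. Pooled over tables, low values were whole multiples of 1 step per library (100% within 0.02 steps, 19 to 130 values per library). These were too few within single tables to recover whole reads, so no count test was run. limma 3.58.1 in R 4.3.3 (mean-variance trend, Benjamini-Hochberg adjustment) was fitted to log2(normalized count + 1) and tested on simulated data. Its p-values come from genes already selected, so they are no independent evidence. An exact permutation test of 3 against 3 cannot go below p = 0.1 and was not used. Gene models and dm6 coordinates were read from Ensembl release 115 (BDGP6.54), and all 37 genes matched by identifier.

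The genes, lists and tests were chosen with earlier results of these data known. Named genes were those in both comparisons, per table the 8 largest changes whose mean reached 20 normalized counts, the 3 smallest adjusted p-values, the 3 highest control means and the smallest change, and genes within 20 kb of another of the 37; this gave 31 of 37, and the other 6 are named so that each gene is accounted for. The replicate numbers were checked for pairing by correlating deviations from group means: between overexpression and RNAi the correlations were 0.28, 0.55 and 0.18 over 179 genes, so these numbers were taken to pair those libraries, whereas against control at least 1 correlation lay under 0.1. The differences, SEs and adjusted p-values printed for single genes come from the fit without that pairing. The replicate block, used only as an alternative, spanned all 9 libraries and so also grouped the control libraries by number.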

Additional observations from a re-analysis of the deposited data

Results flagged for a closer look

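The response to RNAi and to overexpression differed in each of the 5 genes listed in both comparisons, by the limma fit over 179 genes described above, which called 63.7% of them. Overexpression minus RNAi was 3.76 on the log2 scale for CG14960, where every RNAi library lay below and every overexpression library above the controls. The opposite calls of that gene already implied a difference of this sign. For CG8420, higher in both genotypes, overexpression minus RNAi was 2.05. For CG11693 and CG13154, lower in both, it was 1.89 and 0.98, and for CG15545, also lower in both, it was -1.24. Groups of 3 libraries were not searched for single outlying samples.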

How the results depend on the processing

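The counts of 10 lower and 4 higher genes in RNAi were the same under 13 alternatives each: limma in place of the authors' call with a pseudocount of 1 or 5, the replicate block, leaving out each of the 6 libraries, a mean of at least 20 or 50 normalized counts, a peak at 2 d alone, and unknown function in every table. For overexpression the 15 lower and 13 higher genes became 13 and 11 with a peak at 2 d alone and did not change under the other 12. Leaving out each library left these counts at 10, 4, 15 and 13. A refit of genes selected for their change calls 100% of all listed genes, so this stability says little. Of the genes listed in both comparisons, 5 of 5 differed between overexpression and RNAi under all 9 alternatives, with the replicate block too, and their adjusted p-values ranged up to 0.027, in CG13154. The block changed no call: with it, 10 and 4 genes were called in RNAi and 15 and 13 in overexpression. Over the 36 named values, leaving out 1 library moved a log2 ratio by at most 0.44, in CG13258 without RNAi replicate 1 (-3.64), and the direction held in all 216 such values. The authors' scaling could not be varied, since the tables hold only called genes. Depth limits the low values most, as in CG11693 after RNAi.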

Other observations

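Control replicate 1 held the highest control value in 40.5% of the 37 genes and the lowest in 45.9%, close to the 37.6% and 43.1% over all 904 listed genes. It was the highest in 13 of the 21 genes listed only as lower (61.9%) and in 54.2% of all 284 genes so listed. It was the lowest in 9 of the 15 genes listed only as higher, and in 48.1% of all 580 genes so listed. The same control values entered the calls that set these groups, so the counts are a description only. In overexpression, replicate 2, at 9467 normalized counts of Blimp-1 against 23252 and 18277 in the other libraries, held the highest value in 9 of the 13 higher genes and the lowest in 7 of the 15 lower genes. Over all listed genes it was the highest in 305 of 514 higher genes (59.3%) and the lowest in 113 of 196 lower genes (57.7%).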
